A study of Mus musculus with 24 samples.

Results

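The 41 genes described here are interferon-stimulated genes, of 21956 genes tested and 37074 gene names on the array. They were chosen by name, as every non-control probe whose gene name in the scanner files equals a member. All 41 had at least 1 tested probe. They were read in 3 roles, 7 sensors and transcription factors, 25 effectors including the ISG15 system, and 9 guanylate-binding and immunity-related GTPases. The first 2 roles together are the 32 type I sensors and effectors, set here against the 9 GTPases.

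RNA came from the livers of female sv129/C57 mice aged 8 weeks, and each liver was read on 1 single-colour Agilent array. WT control and KO control mice received water, and WT FB1 and KO FB1 mice received fumonisin B1 (FB1) at 10 mg/kg body weight per day, each for 1 month, with 6 mice in every group. The KO mice are labelled LXRalpha beta KO and stand for a loss of the oxysterol receptors LXRα and LXRβ, encoded by Nr1h3 and Nr1h2, in both the water and the FB1 group. The deletion was not described as limited to a cell type, and the labels do not state which part of each gene was removed. FB1 is a mycotoxin of Fusarium moulds that blocks ceramide synthases.

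Type I interferons (interferon alpha and beta) bind the receptor IFNAR1/IFNAR2, and type III interferons (interferon lambda) bind IFNLR1/IL10RB, which in liver sits mainly on epithelial cells. Both lead to a complex with STAT2 and IRF9 that binds the interferon-stimulated response element in target promoters. Type II interferon (interferon gamma) acts through IFNGR1/IFNGR2 on a different element, the gamma-activated site, and is the strongest known inducer of most guanylate-binding and immunity-related GTPases. The sets overlap, since many targets respond to more than 1 type.

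The promoters of representative members are printed to show matches to the 2 elements named above. Both elements were matched among the type I members and among the GTPases, so they do not set the roles apart here. RefSeq promoters of GRCm38.p6, from 250 bases before to 50 after the start site, were at hand for 29 of the 41 members. The core of the interferon-stimulated response element, searched as GAAANNGAAA on both strands, was present in 18 of the 29 members (62.1%) and in 1079 of the 27025 genes searched (3.99%). It was found in 12 of 22 type I sensors and effectors (54.5%) and in 6 of 7 GTPases (85.7%). The gamma-activated site, searched as TTCNNNGAA on both strands, was present in 4 of 22 type I sensors and effectors (18.2%), in 3 of 7 GTPases (42.9%) and in 9.55% of the genes searched. Matches to the 2 motifs can overlap each other, and a match is a description of letters, not a bound site. The windows below read 5′ to 3′ along the gene's own strand, with the response element match in capitals and up to 15 bases on either side, cut at the start site. They lie at chr4:156200860-156200911 for Isg15, chr5:120907526-120907560 for Oas1a, chr5:120887614-120887646 for Oas1g and chr5:120777710-120777749 for Oas3, all on the minus strand. Those of Ifit1 at chr19:34640789-34640828, Gbp2 at chr3:142620589-142620628, Igtp at chr11:58199507-58199546 and Irgm2 at chr11:58214898-58214937 lie on the plus strand.
Isg15: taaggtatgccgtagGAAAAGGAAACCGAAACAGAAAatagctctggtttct
Oas1a: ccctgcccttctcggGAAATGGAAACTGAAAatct
Oas1g: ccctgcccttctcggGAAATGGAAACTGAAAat
Oas3: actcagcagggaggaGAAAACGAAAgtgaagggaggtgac
Ifit1: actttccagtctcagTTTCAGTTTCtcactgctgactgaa
Gbp2: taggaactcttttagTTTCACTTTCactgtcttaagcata
Igtp: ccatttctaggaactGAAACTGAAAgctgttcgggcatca
Irgm2: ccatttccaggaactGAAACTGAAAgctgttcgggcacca
Isg15 carries 3 overlapping matches in 1 block. Oas1a and Oas1g, neighbouring copies of 1 ancestral gene, carry the same 2 overlapping matches in the same flanks just before the start. Igtp and Irgm2, also neighbours, share their match as well, and both hold a gamma-activated site match just upstream of it.

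The gamma-activated site matches of these 2 GTPases are printed next because they overlap the response element window. Capitals here mark the match to TTCNNNGAA. They lie at chr11:58199496-58199534 for Igtp and chr11:58214887-58214925 for Irgm2 on the plus strand.
Igtp: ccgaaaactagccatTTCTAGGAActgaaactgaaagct
Irgm2: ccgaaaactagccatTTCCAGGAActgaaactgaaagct
Gbp7 held 2 matches of this kind. Oas1a, Bst2, Ifit2 and Ifi35 were the type I members with 1.

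The share of the 59305 spots for genes that stood well above background was 58.7% to 64.5% over the arrays. Levels are log2 of the processed signal minus the array's 75th percentile, so a level of 0 equals that percentile, and a level is comparable between livers for 1 probe but not between genes. Within a group, pairs of arrays had correlations of 0.984 to 0.994 over the genes tested. Each of the 3 slides held 8 arrays, 2 from every group. Nr1h3 lay between 4.71 and 5.06 in the 12 WT livers and between -5.13 and -2.56 in the 12 KO livers. 1 Nr1h2 probe lay between 4.02 and 4.34 in WT and between 0.31 and 0.80 in KO, whereas a second, dim Nr1h2 probe did not separate the genotypes, at -2.59 to -2.03 in WT and -2.36 to -1.85 in KO livers. All 10 hepatocyte markers were well above background on all 24 arrays. Differences below are log2 differences between means of 6 livers ± the standard error of the fit, which takes 1 spread per gene over all 4 groups. A call is a Benjamini-Hochberg adjusted p under 0.05 over all genes tested in limma. Ranges of levels run from the lowest to the highest of the 6 livers. Precision is limited by the number of arrays. In a whole organ, fewer cells of a type and less RNA per cell cannot be told apart.

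**Figure D1:**
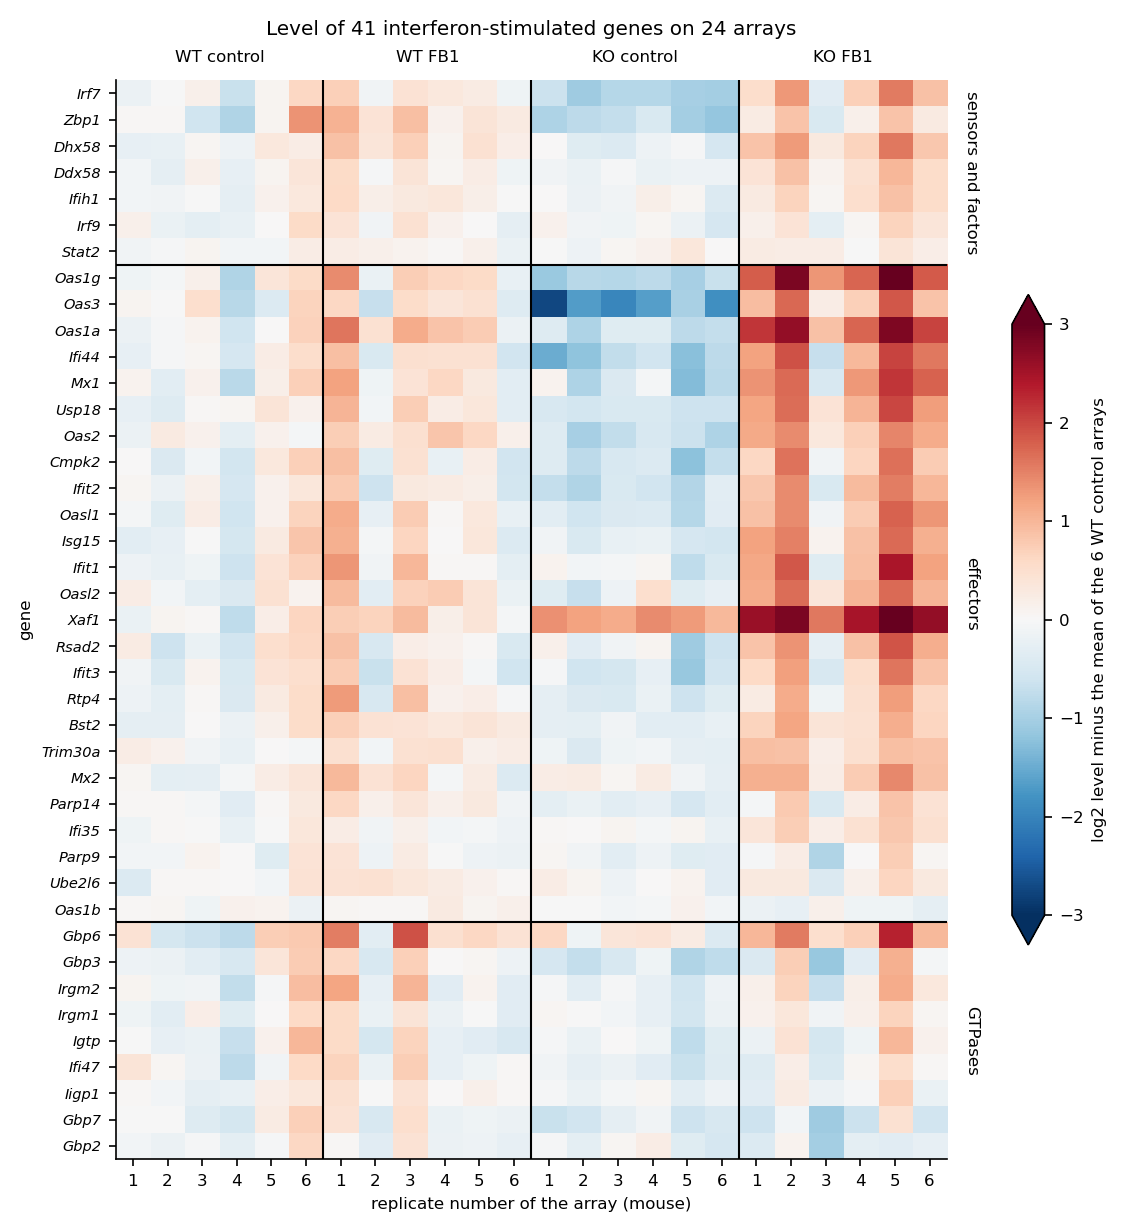
Level of each of the 41 members (vertical, by role) in each of the 24 livers (horizontal, by group), as the log2 difference from the mean of the WT controls of the same gene; the colour scale is capped at 3 in either direction, and some values lie beyond it. The 6 KO FB1 livers hold most of the high values of the type I sensors and effectors, with replicate 5 the highest for 30 of 32 and replicate 3 the lowest for 30 of 32, while high and low values of the 9 GTPases are spread over the groups.

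FB1 was followed by a broad rise of the type I programme in KO livers. In WT livers no member was called, in a comparison where few genes of any kind were. Of the 32 type I differences there, 31 were positive, but on slide 3 alone 10 of 32 were. Members vary together between livers, with WT FB1 replicate 1 the highest of its group for 27 of 32. The sign count therefore does not show a change, and the absence of calls does not show that there was none. In KO mice 28 of the 41 members rose and 0 fell, against 16.6% of all genes tested that rose and 24.7% that fell. Of the type I sensors and effectors 27 of 32 rose, with a median difference of 1.26 over all 32, and of the GTPases 1 of 9 rose, with a median of 0.37; the median over all genes tested was -0.076. For 17 members, all of them type I sensors or effectors, every KO FB1 liver lay above every KO control liver, a separation upwards that 8.9% of all genes showed and downwards 9.52%. In WT mice 0 of 41 members passed the test in limma, where 2.06% of all genes rose and 0.824% fell (2.89% in either direction), and 6 members had an unadjusted p under 0.05.

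Among the sensors and transcription factors, 5 of 7 rose with FB1 in KO livers and the median difference was 0.71. Irf7, the transcription factor that amplifies the induction of interferon alpha genes, ranged from 4.16 to 5.46 (median 4.87) in WT controls, 4.71 to 5.55 (median 5.12) in WT FB1 livers, 3.76 to 4.20 (median 3.90) in KO controls and 4.49 to 6.38 (median 5.64) in KO FB1 livers. It rose 3.22-fold in KO mice (1.69 ± 0.24, adjusted p = 1.03e-05), and its difference in WT mice was 0.25 ± 0.24 (adjusted p = 0.617). All 6 KO FB1 livers lay above all 6 KO controls, and 4 of them lay above every one of the other 18 livers. Zbp1, a cytosolic sensor of nucleic acids in the Z conformation that can start necroptosis, ranged from 0.033 to 2.28 (median 0.97) in WT controls, 1.06 to 1.99 (median 1.33) in WT FB1 livers, -0.23 to 0.47 (median 0.081) in KO controls and 0.47 to 1.79 (median 1.19) in KO FB1 livers. It rose by 1.16 ± 0.28 (adjusted p = 0.00199), from a KO control level that was below WT, so that the KO FB1 livers overlapped both WT groups. A separate Zbp1 probe gave 1.75 ± 0.41 (adjusted p = 0.00165).

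The RIG-I-like receptors, helicases that bind viral RNA in the cytosol, rose together. Dhx58, which encodes LGP2, the member without signalling domains, ranged from -0.20 to 0.37 (median -0.0039) in WT controls, 0.13 to 0.92 (median 0.46) in WT FB1 livers, -0.46 to 0.058 (median -0.21) in KO controls and 0.33 to 1.62 (median 0.88) in KO FB1 livers. Its rise in KO mice was 1.15 ± 0.18 (adjusted p = 2.32e-05), and the WT difference of 0.45 had an unadjusted p of 0.0168 and an adjusted p of 0.17. Ddx58, which encodes RIG-I itself, ranged from 2.30 to 2.91 (median 2.57) in WT controls, 2.42 to 3.13 (median 2.69) in WT FB1 livers, 2.35 to 2.52 (median 2.40) in KO controls and 2.66 to 3.55 (median 3.07) in KO FB1 livers. It rose by 0.71 ± 0.14 (adjusted p = 0.000289), and 3 further probes of the gene gave 1.37, 0.97 and 1.03. Ifih1, which encodes MDA5, the receptor for long double-stranded RNA, ranged from 1.42 to 2.01 (median 1.64) in WT controls, 1.67 to 2.29 (median 1.92) in WT FB1 livers, 1.28 to 1.87 (median 1.64) in KO controls and 1.73 to 2.56 (median 2.22) in KO FB1 livers. Its rise was the smallest of the 3 helicases (0.56 ± 0.13, adjusted p = 0.00168), 5 of 6 KO FB1 livers lay above all KO controls, and a further probe gave 0.92 ± 0.21. That dimmer probe ranged from -5.61 to -4.91 in KO controls and from -4.23 to -3.64 in WT controls. With FB1 it ranged from -5.55 to -3.90 in KO and from -3.76 to -3.06 in WT livers. The Ifih1 probes thus disagree on the difference between genotypes.

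The members Irf9 and Stat2, which act in the complex that binds the response element, did not pass the test. Irf9, its DNA-binding subunit, ranged from 2.68 to 3.55 (median 2.88) in WT controls, 2.70 to 3.44 (median 3.05) in WT FB1 livers, 2.46 to 3.11 (median 2.86) in KO controls and 2.67 to 3.65 (median 3.23) in KO FB1 livers. The difference in KO mice was 0.35 ± 0.17 (adjusted p = 0.0972). Stat2 ranged from 3.09 to 3.40 (median 3.14) in WT controls, 2.99 to 3.43 (median 3.32) in WT FB1 livers, 3.05 to 3.53 (median 3.23) in KO controls and 3.17 to 3.57 (median 3.40) in KO FB1 livers, with a KO difference of 0.14 ± 0.086 (adjusted p = 0.206). For Irf9 4 of 6 KO FB1 livers and for Stat2 1 of 6 lay above all KO controls. Both genes pass with quantile normalisation, at 0.48 for Irf9 and 0.29 for Stat2.

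The ISG15 system moved unevenly across its probes. Isg15, a ubiquitin-like protein that is joined to other proteins in interferon-treated cells, ranged from 4.11 to 5.45 (median 4.50) in WT controls, 4.23 to 5.69 (median 4.80) in WT FB1 livers, 4.08 to 4.53 (median 4.30) in KO controls and 4.72 to 6.32 (median 5.76) in KO FB1 livers. It rose 2.66-fold with FB1 in KO mice (1.41 ± 0.26, adjusted p = 0.00015), with all KO FB1 livers above all KO controls, while the WT difference was 0.27 ± 0.26 (adjusted p = 0.612). Usp18, the protease that removes ISG15 and also restrains signalling at IFNAR2, ranged from 1.40 to 2.18 (median 1.83) in WT controls, 1.47 to 2.80 (median 2.06) in WT FB1 livers, 1.16 to 1.34 (median 1.27) in KO controls and 2.21 to 3.78 (median 3.01) in KO FB1 livers. It rose 3.45-fold in KO mice (1.79 ± 0.22, adjusted p = 1.79e-06), and its KO control livers lay below all 6 WT controls. Ube2l6, the conjugating enzyme of ISG15, ranged from 2.25 to 3.09 (median 2.68) in WT controls, 2.69 to 3.11 (median 2.95) in WT FB1 livers, 2.32 to 2.88 (median 2.71) in KO controls and 2.22 to 3.30 (median 2.95) in KO FB1 livers. Its difference in KO mice was 0.22 ± 0.15 (adjusted p = 0.244), and all 4 groups overlapped. A dimmer probe of Ube2l6 on chromosome 2 (mm9, 84650257 to 84650316 against 84649861 to 84649920 for the probe used) gave 0.82 ± 0.14 (adjusted p = 6.19e-05), so the 2 probes differ in their call.

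The 3 members with the largest rises in KO mice were oligoadenylate synthetases, Oas1g, Oas3 and Oas1a. These enzymes bind double-stranded RNA and make the second messenger that switches on the nuclease RNase L. Probes for Oas1a, Oas1b, Oas1g, Oas2 and Oas3 lay together on chromosome 5 (mm9, 121180343 to 121346794), and Oas1 paralogues are near-identical in places, so their probes may read each other's transcripts. Oas1g ranged from -4.07 to -2.60 (median -3.13) in WT controls, -3.39 to -1.76 (median -2.57) in WT FB1 livers, -4.29 to -3.85 (median -4.02) in KO controls and -1.86 to -0.0089 (median -1.35) in KO FB1 livers. It rose 7.97-fold with FB1 in KO mice (2.99 ± 0.30, adjusted p = 1.64e-07), and 5 of 6 KO FB1 livers lay above all of the other 18 livers. The Oas1a probe, whose accessions match both Oas1a and Oas1g, ranged from 1.88 to 3.17 (median 2.47) in WT controls, 2.31 to 4.08 (median 3.30) in WT FB1 livers, 1.57 to 2.12 (median 1.94) in KO controls and 3.37 to 5.28 (median 4.58) in KO FB1 livers. Its rise in KO mice was 2.63 ± 0.28 (adjusted p = 4.08e-07), and in WT mice the difference of 0.77 had an unadjusted p of 0.012 and an adjusted p of 0.144.

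Oas3, the largest of these enzymes, was dim in KO controls, well above background on 1 of 6 arrays there and on all arrays of the other groups. It ranged from -4.88 to -3.40 (median -4.02) in WT controls, -4.74 to -3.44 (median -3.65) in WT FB1 livers, -6.79 to -5.03 (median -5.82) in KO controls and -3.84 to -2.19 (median -3.16) in KO FB1 livers. The fitted rise in KO mice was 2.86 ± 0.31 (adjusted p = 5.33e-07), and with the dim arrays raised to the background floor it was 2.61. All 6 KO control livers lay below every other liver of the study. Oas2 ranged from 0.98 to 1.56 (median 1.31) in WT controls, 1.43 to 2.10 (median 1.83) in WT FB1 livers, 0.29 to 0.89 (median 0.59) in KO controls and 1.60 to 2.75 (median 2.40) in KO FB1 livers. It rose 3.29-fold in KO mice (1.72 ± 0.17, adjusted p = 1.46e-07), and 4 of 6 WT FB1 livers lay above all WT controls, with a WT difference of 0.51 ± 0.17 (adjusted p = 0.104).

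Oas1b, known as the flavivirus resistance gene of mice, stood apart from its neighbours on the probe used. That probe ranged from 5.11 to 5.41 (median 5.34) in WT controls, 5.32 to 5.57 (median 5.36) in WT FB1 livers, 5.22 to 5.42 (median 5.26) in KO controls and 5.03 to 5.45 (median 5.14) in KO FB1 livers, with a KO difference of -0.11 ± 0.072 (adjusted p = 0.223). The 2 other Oas1b probes were dimmer and gave 0.59 ± 0.12 (adjusted p = 0.000494) and 1.38 ± 0.22 (adjusted p = 4.11e-05). The accessions of the probe used matched no symbol in the RefSeq table, and the probes disagree on whether this gene rose. The oligoadenylate synthetase-like genes encode proteins with added ubiquitin-like domains, and Oasl1 is known to hold back translation of Irf7. Oasl1 ranged from 1.43 to 2.68 (median 2.07) in WT controls, 1.79 to 3.14 (median 2.21) in WT FB1 livers, 1.18 to 1.71 (median 1.60) in KO controls and 1.93 to 3.80 (median 3.13) in KO FB1 livers, and it rose by 1.5 ± 0.27 (adjusted p = 0.000134). Oasl2 ranged from -0.64 to 0.27 (median -0.18) in WT controls, -0.50 to 0.76 (median 0.34) in WT FB1 livers, -0.88 to 0.31 (median -0.51) in KO controls and 0.18 to 1.51 (median 0.87) in KO FB1 livers, and it rose by 1.37 ± 0.24 (adjusted p = 0.000123). For Oasl1 all 6 KO FB1 livers lay above the KO controls, for Oasl2 5 of 6 did, and those 5 were the highest 5 livers of the study.

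**Figure D2:**
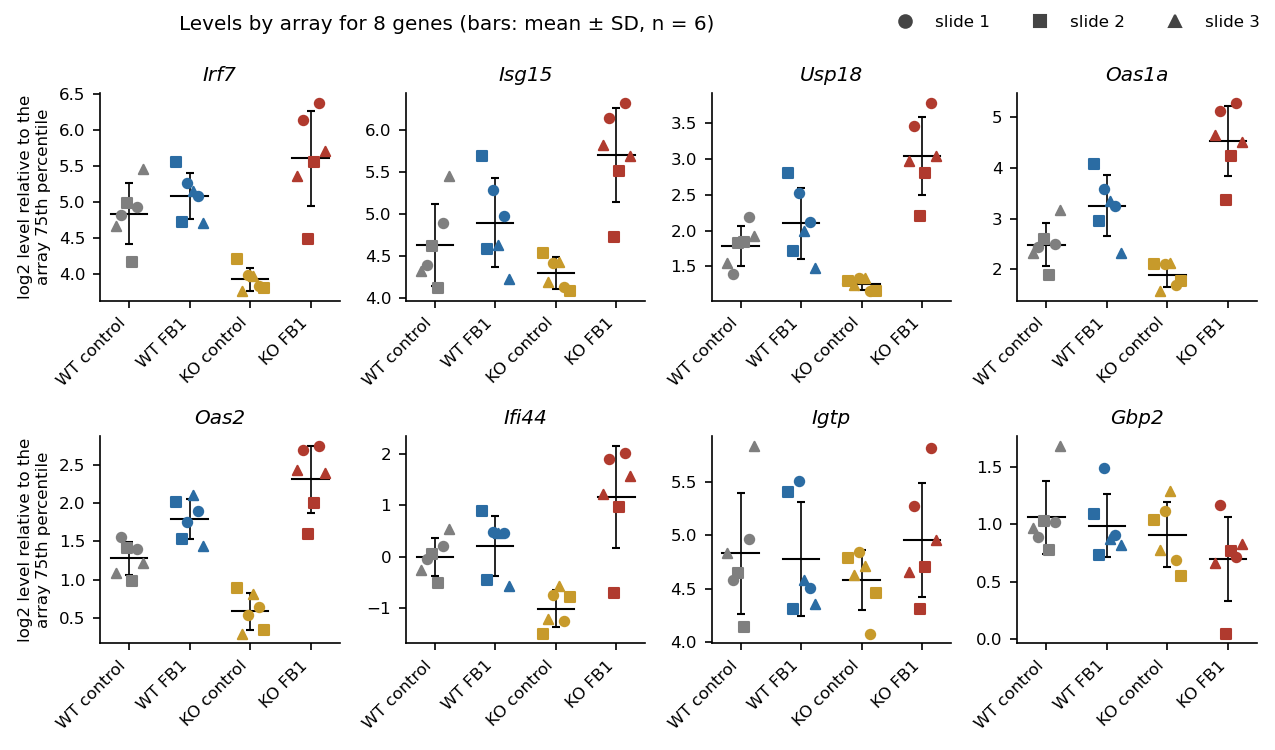
Log2 level (vertical) of Irf7, Isg15, Usp18, Oas1a, Oas2, Ifi44, Igtp and Gbp2 in each liver by group (horizontal), with the marker shape giving the slide and bars the mean ± SD of 6 livers. KO FB1 livers stand above KO controls for the first 6 genes, apart from replicate 3 for Ifi44, while the groups overlap for Igtp and Gbp2.

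The antiviral effectors that act on virus particles and viral RNA rose with the same livers leading. Mx1, a dynamin-like GTPase that blocks influenza virus in the nucleus, ranged from -2.64 to -1.12 (median -1.72) in WT controls, -2.15 to -0.63 (median -1.48) in WT FB1 livers, -3.13 to -1.72 (median -2.46) in KO controls and -2.31 to 0.30 (median -0.31) in KO FB1 livers. It rose 3.64-fold in KO mice (1.86 ± 0.36, adjusted p = 0.00025), 5 of 6 KO FB1 livers were the highest 5 of the study, and KO FB1 replicate 3 lay among the controls. Mx2, its cytoplasmic relative, ranged from 1.05 to 1.70 (median 1.35) in WT controls, 0.94 to 2.32 (median 1.68) in WT FB1 livers, 1.08 to 1.59 (median 1.49) in KO controls and 1.56 to 2.79 (median 2.31) in KO FB1 livers, and it rose by 0.84 ± 0.20 (adjusted p = 0.00191). Bst2, which encodes tetherin, a membrane anchor that holds budding virus on the cell, ranged from 4.42 to 5.24 (median 4.60) in WT controls, 4.96 to 5.40 (median 5.08) in WT FB1 livers, 4.37 to 4.58 (median 4.41) in KO controls and 5.07 to 5.88 (median 5.35) in KO FB1 livers. It rose by 0.99 ± 0.14 (adjusted p = 8.49e-06) with no overlap between the KO groups. In WT mice Bst2 had a difference of 0.42 ± 0.14 (adjusted p = 0.101), which passes at 0.53 when WT control replicate 6, its highest control, is left out.

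Of the Ifit genes, Ifit1 encodes a protein that binds viral RNA lacking the host's cap methylation. The probes of Ifit1, Ifit2 and Ifit3 lay in a row on chromosome 19 (mm9, 34650244 to 34723886). Ifit1 ranged from -0.30 to 1.01 (median 0.17) in WT controls, 0.011 to 1.62 (median 0.35) in WT FB1 livers, -0.46 to 0.42 (median 0.23) in KO controls and -0.052 to 2.76 (median 1.5) in KO FB1 livers, and it rose 2.65-fold in KO mice (1.40 ± 0.35, adjusted p = 0.00293). Ifit2 ranged from -2.73 to -1.87 (median -2.14) in WT controls, -2.84 to -1.45 (median -2.01) in WT FB1 livers, -3.12 to -2.53 (median -2.86) in KO controls and -2.69 to -0.67 (median -1.25) in KO FB1 livers, and it rose 2.85-fold (1.51 ± 0.27, adjusted p = 0.000115). Ifit3 ranged from 1.32 to 2.28 (median 1.78) in WT controls, 1.11 to 2.55 (median 1.85) in WT FB1 livers, 0.65 to 1.74 (median 1.23) in KO controls and 1.30 to 3.38 (median 2.51) in KO FB1 livers, and it rose 2.36-fold (1.24 ± 0.29, adjusted p = 0.00169). For each of the 3 genes 5 of 6 KO FB1 livers lay above all KO controls and replicate 3 did not. Their WT differences were 0.33, 0.054 and 0.011, none of them called.

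Rsad2, which encodes viperin, an enzyme that makes a chain-terminating nucleotide, and its genomic neighbour Cmpk2, a nucleotide kinase of mitochondria, rose by similar amounts. Rsad2 ranged from -0.13 to 1.11 (median 0.50) in WT controls, -0.014 to 1.36 (median 0.55) in WT FB1 livers, -0.58 to 0.64 (median 0.26) in KO controls and 0.20 to 2.36 (median 1.46) in KO FB1 livers, with a rise of 1.27 ± 0.31 (adjusted p = 0.00222). Cmpk2 ranged from -0.95 to 0.32 (median -0.44) in WT controls, -0.97 to 0.49 (median -0.41) in WT FB1 livers, -1.64 to -0.79 (median -1.0) in KO controls and -0.50 to 1.25 (median 0.30) in KO FB1 livers, with a rise of 1.54 ± 0.28 (adjusted p = 0.000189). Cmpk2 separated the KO groups without overlap, whereas 1 KO FB1 liver overlapped the KO controls for Rsad2. Ifi44, an interferon-induced protein of the cytoplasm, ranged from -0.51 to 0.54 (median 0.0036) in WT controls, -0.57 to 0.89 (median 0.46) in WT FB1 livers, -1.5 to -0.57 (median -1.0) in KO controls and -0.70 to 2.02 (median 1.40) in KO FB1 livers. It rose 4.51-fold (2.17 ± 0.34, adjusted p = 3.67e-05), and its KO controls lay below every other liver except KO FB1 replicate 3.

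The remaining effectors were regulators of cell death, signalling and ADP-ribosylation. Rtp4, a receptor-transporting protein that also dampens interferon signalling, ranged from 2.97 to 3.95 (median 3.34) in WT controls, 2.92 to 4.69 (median 3.56) in WT FB1 livers, 2.78 to 3.19 (median 2.99) in KO controls and 3.27 to 4.66 (median 3.95) in KO FB1 livers. Its rise in KO mice was 1.0 ± 0.25 (adjusted p = 0.0031), and the KO FB1 levels did not exceed the highest WT levels. Ifi35, an interferon-induced leucine zipper protein, ranged from 4.17 to 4.72 (median 4.38) in WT controls, 4.23 to 4.60 (median 4.32) in WT FB1 livers, 4.17 to 4.47 (median 4.40) in KO controls and 4.58 to 5.19 (median 4.84) in KO FB1 livers. It rose by 0.52 ± 0.10 (adjusted p = 0.000358), a small change with little spread, and 5 of 6 KO FB1 livers were the highest 5 of the study. Trim30a, a ubiquitin ligase of the TRIM family, ranged from -1.18 to -0.72 (median -0.96) in WT controls, -1.03 to -0.46 (median -0.60) in WT FB1 livers, -1.38 to -1.04 (median -1.15) in KO controls and -0.75 to -0.043 (median -0.080) in KO FB1 livers. It rose by 0.93 ± 0.12 (adjusted p = 4.61e-06), and 2 further probes gave 1.34 and 1.44.

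Parp14, a mono-ADP-ribosyltransferase, ranged from 2.30 to 2.92 (median 2.66) in WT controls, 2.52 to 3.25 (median 2.85) in WT FB1 livers, 2.13 to 2.42 (median 2.32) in KO controls and 2.16 to 3.49 (median 2.94) in KO FB1 livers. It rose by 0.60 ± 0.17 (adjusted p = 0.00632), and a further probe gave 1.11. Parp9, its partner without strong enzyme activity of its own, ranged from 2.09 to 2.85 (median 2.42) in WT controls, 2.26 to 2.86 (median 2.37) in WT FB1 livers, 2.08 to 2.50 (median 2.22) in KO controls and 1.55 to 3.20 (median 2.48) in KO FB1 livers. The difference in KO mice was 0.22 ± 0.18 (adjusted p = 0.36). Of 3 dimmer Parp9 probes 1 gave 1.15 ± 0.29 (adjusted p = 0.00329), and the others gave -0.00037 and -0.059, so that 1 of 4 probes passed.

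Xaf1, which encodes a pro-apoptotic partner of the caspase inhibitor XIAP, gave opposite genotype differences on 2 probes. The probe used, the brighter of the 2 on average, ranged from -1.67 to -0.25 (median -0.85) in WT controls, -0.95 to 0.057 (median -0.37) in WT FB1 livers, 0.074 to 0.52 (median 0.34) in KO controls and 0.68 to 2.41 (median 1.71) in KO FB1 livers. On it Xaf1 was higher in KO than in WT controls by 1.23 ± 0.23 (adjusted p = 0.000551), and all 6 KO FB1 livers lay above all of the other 18. The second probe, further along the gene on chromosome 11 (mm9, 72127175 to 72127234 against 72122169 to 72122228), ranged from 1.85 to 2.98 in WT controls and from -5.68 to -5.02 in KO controls. Its difference of KO minus WT controls was -7.69 ± 0.22 (adjusted p = 1.77e-17). With FB1 in KO mice the 2 probes rose by 1.34 ± 0.23 and 1.38 ± 0.22, so the rise does not depend on the probe, whereas the direction between genotypes does. All mice are labelled sv129/C57, and the labels do not give how much of each strain a mouse or a group carries. A strain difference in sequence under a probe and the deletion cannot be told apart in the genotype differences of Xaf1. The same holds for Oas1b and Ifih1, whose probes disagree too.

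The 9 GTPases, which attack the membranes of vacuoles that hold intracellular pathogens, were mostly not called. In KO mice 1 of 9 rose with FB1 (11.1%), a share near the 16.6% of all genes. The 9 differences ran from -0.21 to 0.99, and 8 of them were positive. Gbp6 ranged from -1.19 to 0.37 (median -0.46) in WT controls, -0.72 to 1.5 (median 0.13) in WT FB1 livers, -0.83 to 0.21 (median -0.10) in KO controls and 0.10 to 1.90 (median 0.57) in KO FB1 livers. It rose by 0.99 ± 0.36 (adjusted p = 0.032), with 5 of 6 KO FB1 livers above all KO controls, and its WT difference was 0.78 ± 0.36 (adjusted p = 0.258). The call for Gbp6 is lost when KO control replicate 2 or 6, or KO FB1 replicate 2 or 5, is left out (adjusted p up to 0.0896). Without KO FB1 replicate 3, 4 GTPases pass, Gbp3, Gbp6, Irgm1 and Irgm2.

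Gbp2, the guanylate-binding protein that helps open pathogen vacuoles, ranged from 0.78 to 1.69 (median 0.99) in WT controls, 0.73 to 1.49 (median 0.89) in WT FB1 livers, 0.55 to 1.29 (median 0.91) in KO controls and 0.044 to 1.17 (median 0.74) in KO FB1 livers, with a KO difference of -0.21 ± 0.17 (adjusted p = 0.345). Gbp3 ranged from 1.40 to 2.65 (median 1.73) in WT controls, 1.42 to 2.61 (median 1.93) in WT FB1 livers, 0.99 to 1.77 (median 1.29) in KO controls and 0.77 to 2.96 (median 1.69) in KO FB1 livers, with a KO difference of 0.55 ± 0.29 (adjusted p = 0.137). Gbp7 had a KO difference of 0.031 ± 0.23 (adjusted p = 0.928) and a 95% interval from -0.44 to 0.50. The 4 groups overlapped for each of these 3 genes. Igtp, a regulatory immunity-related GTPase, ranged from 4.14 to 5.83 (median 4.74) in WT controls, 4.31 to 5.50 (median 4.54) in WT FB1 livers, 4.08 to 4.84 (median 4.67) in KO controls and 4.31 to 5.82 (median 4.83) in KO FB1 livers, with a KO difference of 0.37 ± 0.27 (adjusted p = 0.287). Irgm1 and Irgm2, regulators of the same kind, had KO differences of 0.38 ± 0.17 (adjusted p = 0.0807) and 0.52 ± 0.30 (adjusted p = 0.17). For Irgm1 and for Irgm2, 5 of 6 KO FB1 livers lay above all KO controls. Iigp1, an effector of this family, had a KO difference of 0.15 ± 0.15 (adjusted p = 0.446), and Ifi47 one of 0.32 ± 0.22 (adjusted p = 0.246).

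**Figure D3:**
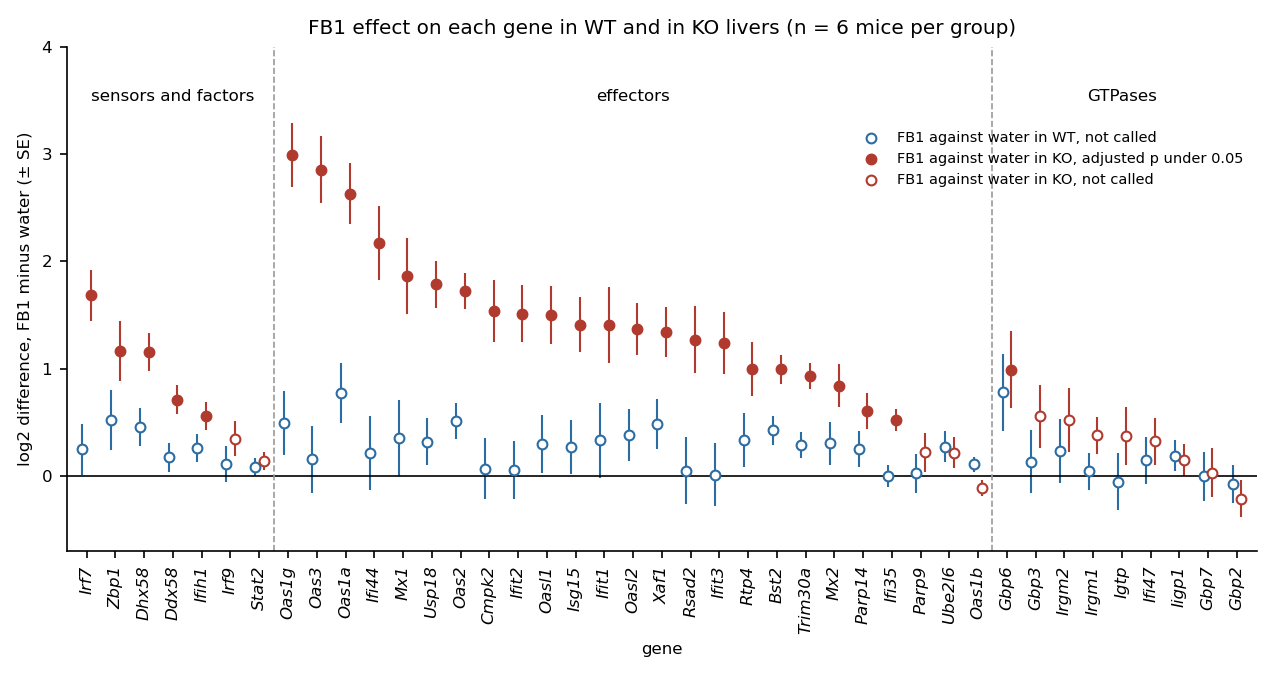
Log2 difference with FB1 (vertical, ± standard error, 6 livers per group) for each of the 41 members (horizontal, by role) in WT and in KO mice, with filled points for adjusted p under 0.05. In KO mice 22 of 25 effectors, 5 of 7 sensors and factors and 1 of 9 GTPases are filled, and in WT mice 0 of 41 are.

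In WT mice the differences with FB1 were small and mostly upward. The median was 0.27 over the 32 type I sensors and effectors, 31 of them positive, and 0.13 over the 9 GTPases, 6 of them positive, beside -0.030 over all genes tested. The 6 members with an unadjusted p under 0.05 were Bst2, Oas1a, Oas2, Dhx58, Trim30a and Gbp6. Trim30a had a WT difference of 0.29 ± 0.12 (adjusted p = 0.216). For 0 members did the 2 WT groups separate, against 1.29% of all genes upwards and 1.03% downwards. The WT result moved with the slide, since the type I median was 0.38 on slide 1, 0.57 on slide 2 and -0.18 on slide 3.

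Without FB1 most type I members had lower levels in KO than in WT livers, and few passed the test. The median difference of KO minus WT controls was -0.31 over the 32, with 29 negative, and 5 were lower while 1 (Xaf1, on the probe used) was higher, against 8.03% of all genes lower and 7.18% higher. The 5 were Oas3 (-1.80 ± 0.31, adjusted p = 0.000213, or -1.56 with dim arrays at the background floor), Irf7 (-0.91 ± 0.24, adjusted p = 0.0103), Oas1g (-0.88 ± 0.30, adjusted p = 0.0484), Zbp1 (-0.85 ± 0.28, adjusted p = 0.0412) and Oas2 (-0.69 ± 0.17, adjusted p = 0.00592). For Ifi44, Usp18, Oas2 and Oas3 all KO controls lay below all WT controls, a separation that 4.33% of all genes showed, and for Xaf1 all lay above, as for 3.6% of all genes. Ifi44 and Usp18 did not pass the test, at -1.01 ± 0.34 (adjusted p = 0.0505) and -0.53 ± 0.22 (adjusted p = 0.112). The GTPases had a median of -0.23, with 8 of 9 negative, 0 called and 0 with an unadjusted p under 0.05 in limma. Zbp1 and Oas1g are the fragile calls here. Oas1g loses its call in 17 of 24 fits that leave out 1 array (adjusted p up to 0.114) and Zbp1 in 9 (up to 0.105), and the count falls to 3 without any 1 of KO control replicates 1, 2, 3, 5 or 6 or WT control replicates 1, 2, 5 or 6.

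With FB1 most type I members had higher levels in KO than in WT livers. In KO FB1 against WT FB1 livers 19 of 41 members were higher and 1 lower, against 14.6% and 18.3% of all genes (32.9% in either direction), with medians of 0.56 over the type I members and -0.15 over the GTPases. The 19 include Xaf1 on the probe used (2.09 ± 0.23, adjusted p = 2.8e-07), although its second probe gave -6.73 ± 0.22 (adjusted p = 1.71e-16). Oas1g (1.63 ± 0.30, adjusted p = 0.000178) and Oas1a (1.27 ± 0.28, adjusted p = 0.00129) had the largest differences of the other 18. Mx1 (0.95 ± 0.36, adjusted p = 0.0443), Ifi44 (0.95 ± 0.34, adjusted p = 0.037), Usp18 (0.94 ± 0.22, adjusted p = 0.00185) and Rsad2 (0.91 ± 0.31, adjusted p = 0.0259) followed, and the remainder lay between 0.40 for Ddx58 and 0.90 for Oas3. The 1 lower was Oas1b (-0.23 ± 0.072, adjusted p = 0.0156), on the probe that disagrees with the other 2. The 2 FB1 groups separated for 1 member, Xaf1, upwards on the probe used and downwards on the second, and a separation upwards was shown by 7.07% of all genes. Among the 9 GTPases 0 were called and 0 had an unadjusted p under 0.05 in limma, and their median became 0.024 with quantile normalisation, so its sign is not settled.

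Counted over group means, 25 of 32 type I members lay below WT without FB1 and above WT with it, as did 3 of 9 GTPases. The KO FB1 mean was the highest of the 4 groups for 28 of 32 type I members and 4 of 9 GTPases, and the KO control mean was the lowest for 28 of 32 and 7 of 9. These counts use the same 24 livers as the comparisons above, and the comparisons share their groups with each other, so they are not separate evidence.

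The difference of the FB1 effects, KO minus WT, tests the contrast between genotypes itself. It was positive and called for 13 of 41 members and negative and called for 0, against 4.49% and 4.91% of all genes (9.4% in either direction). Over all genes these shares are 986 positive and 1078 negative calls. The split became 1338 and 919 with normexp background correction followed by quantile normalisation, and 1136 and 802 on the authors' values. All 13 were type I members: Oas3 (2.70 ± 0.44, adjusted p = 0.000984), Oas1g (2.50 ± 0.42, adjusted p = 0.00117), Ifi44 (1.96 ± 0.49, adjusted p = 0.0145) and Oas1a (1.86 ± 0.40, adjusted p = 0.00589) had the largest differences. Usp18, Cmpk2, Ifit2, Irf7, Oas2, Oasl1, Isg15, Trim30a and Ifi35 followed, from 1.47 for Usp18 down to 0.52 for Ifi35. The median was 0.93 over the 32 type I members and 0.21 over the 9 GTPases, of which 0 were called and 0 had an unadjusted p under 0.05 in limma. For Mx1 the difference was large but did not pass (1.51 ± 0.50, adjusted p = 0.0595). Isg15 loses the call in 19 of 24 fits that leave out 1 array (adjusted p up to 0.0851) and Oasl1 in 18 (up to 0.085).

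Taking each gene relative to its WT control mean and the median over the 32 genes, the 6 KO FB1 livers stood at 0.072, 0.69, 0.83, 0.86, 1.29 and 1.55, in ascending order. KO controls ran from -0.56 to -0.12, WT controls from -0.43 to 0.52 and WT FB1 livers from -0.19 to 0.77. All 6 KO FB1 livers lay above all 6 KO controls, while 1 of them, replicate 3, lay within both WT groups. Replicate 5 of the KO FB1 group held the highest level of its group for 30 of 32 type I members and 8 of 9 GTPases, and replicate 3 the lowest for 30 of 32 and 8 of 9. In WT controls replicate 6 was highest for 26 of 32 and 9 of 9, and in WT FB1 livers replicate 1 was highest for 27 of 32 but for 3 of 9 GTPases, with replicate 3 highest for the other 6. In KO controls no liver led in this way, since the most often highest, replicate 1, was so for 13 of 32.

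The spread within a group was smallest in KO controls. The median SD over the type I members was 0.33 in WT controls, 0.44 in WT FB1 livers, 0.20 in KO controls and 0.53 in KO FB1 livers. Over the GTPases the median SD was 0.47, 0.45, 0.22 and 0.53 in the same order, and over all genes tested it was 0.21, 0.19, 0.17 and 0.21. The SD was larger than in KO controls for 26 of 32 type I members in WT controls, 28 in WT FB1 livers and 31 in KO FB1 livers, beside 63.3%, 54.5% and 61.2% of all genes. The fit's standard errors share 1 spread per gene and do not follow these differences. With only the compared groups in the fit, 9 of the 20 calls between the FB1 groups were lost.

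**Figure D4:**
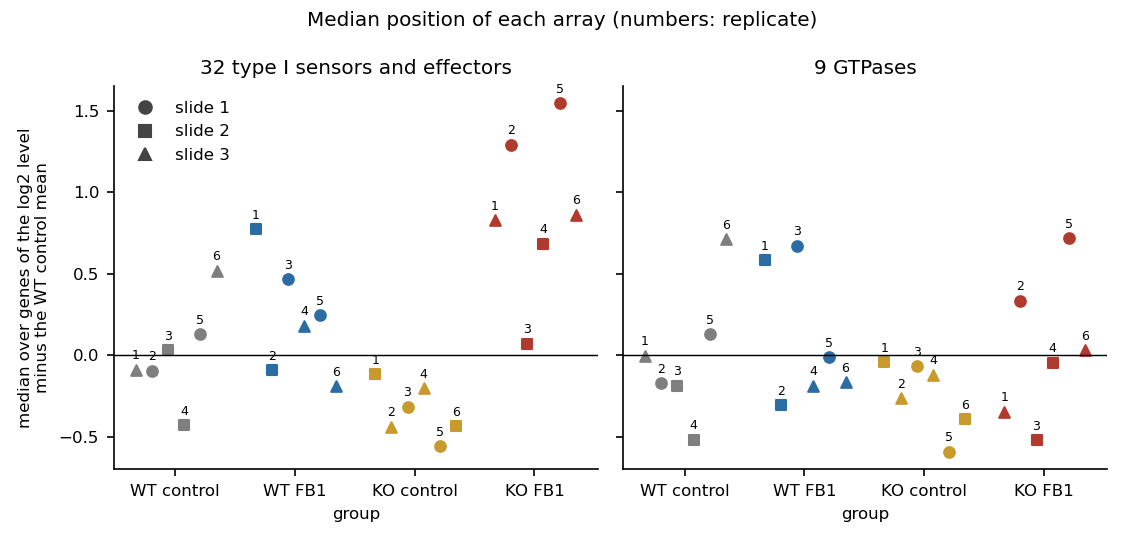
Median over the 32 type I sensors and effectors and over the 9 GTPases (vertical, log2 relative to each gene's WT control mean) in each of the 24 livers by group (horizontal). The KO FB1 type I medians run from 0.072 to 1.55 and lie above all KO controls, while the GTPase medians of KO FB1 livers run from -0.52 to 0.72 and overlap every other group.

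The rise in KO mice was present on each slide for 29 of 32 type I members and 3 of 9 GTPases, with 2 livers per group on a slide. The type I median of the FB1 difference in KO was 1.91 on slide 1, 0.66 on slide 2, which holds KO FB1 replicates 3 and 4, and 1.14 on slide 3. Oas1g had 2.43 to 3.92 over the 3 slides, Oas3 2.57 to 3.25 and Isg15 0.81 to 1.96. The GTPase medians were 0.82, -0.10 and 0.14. KO FB1 against WT FB1 gave type I medians of 0.97, -0.061 and 0.74 on slides 1 to 3, and the difference of the FB1 effects 1.41, 0.034 and 1.30, so that both medians were near 0 on slide 2. The 28 rises in KO mice were more stable, with 27 to 34 members called when 1 array was left out (34 without KO FB1 replicate 3) and Gbp6 alone losing its call, and with 27 called when KO FB1 replicates 3 and 5 were both left out, a choice made after seeing the data. The 19 higher with FB1 became 6 without WT FB1 replicate 6, 8 if either WT FB1 replicate 2 or KO FB1 replicate 5 was left out, 9 without KO FB1 replicate 2 and 23 without KO FB1 replicate 3. The 13 called differences of the effects became 22 without KO FB1 replicate 3 and 20 without WT FB1 replicate 1.

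The genes upstream of the members did not move as a block. Of 52 listed ligands, receptors, kinases, factors and sensors, 35 were tested, and with FB1 in KO mice 12 rose and 7 fell, beside 16.6% and 24.7% of all genes, with a median of -0.0077. The largest rise was that of Ifnlr1, the specific chain of the interferon lambda receptor, which ranged from -5.95 to -4.49 in WT controls, -5.47 to -3.88 in WT FB1 livers, -5.56 to -4.93 in KO controls and -3.48 to -2.11 in KO FB1 livers and differed by 2.50 ± 0.26 (adjusted p = 2.85e-07). All 6 KO FB1 livers lay above every other liver on this dim probe, which was well above background on 5 of 6 WT control arrays and on all others. Il10rb, the second chain of that receptor, ranged from 1.02 to 1.76 in WT controls, 1.48 to 1.69 in WT FB1 livers, 1.15 to 1.52 in KO controls and 1.78 to 2.22 in KO FB1 livers and rose by 0.69 ± 0.10 (adjusted p = 1.33e-05). The interferon gamma receptor chains rose too, Ifngr1 by 0.86 ± 0.11 (adjusted p = 2.01e-06) and Ifngr2 by 0.56 ± 0.086 (adjusted p = 2.88e-05). Of the interferon alpha receptor chains, Ifnar1 differed by -0.042 ± 0.080 (adjusted p = 0.702) and Ifnar2 fell by 0.50 ± 0.11 (adjusted p = 0.00127). In WT mice none of these 6 receptor genes was called. The difference of the FB1 effects was called for Ifnlr1 (2.08 ± 0.37, adjusted p = 0.00181), Ifngr1 (0.70 ± 0.15, adjusted p = 0.00577), Il10rb (0.52 ± 0.14, adjusted p = 0.0243) and Ifngr2 (0.43 ± 0.12, adjusted p = 0.0271). These were the 4 of 35 upstream genes so called, all positive, beside 4.49% of all genes called positive.

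**Figure D5:**
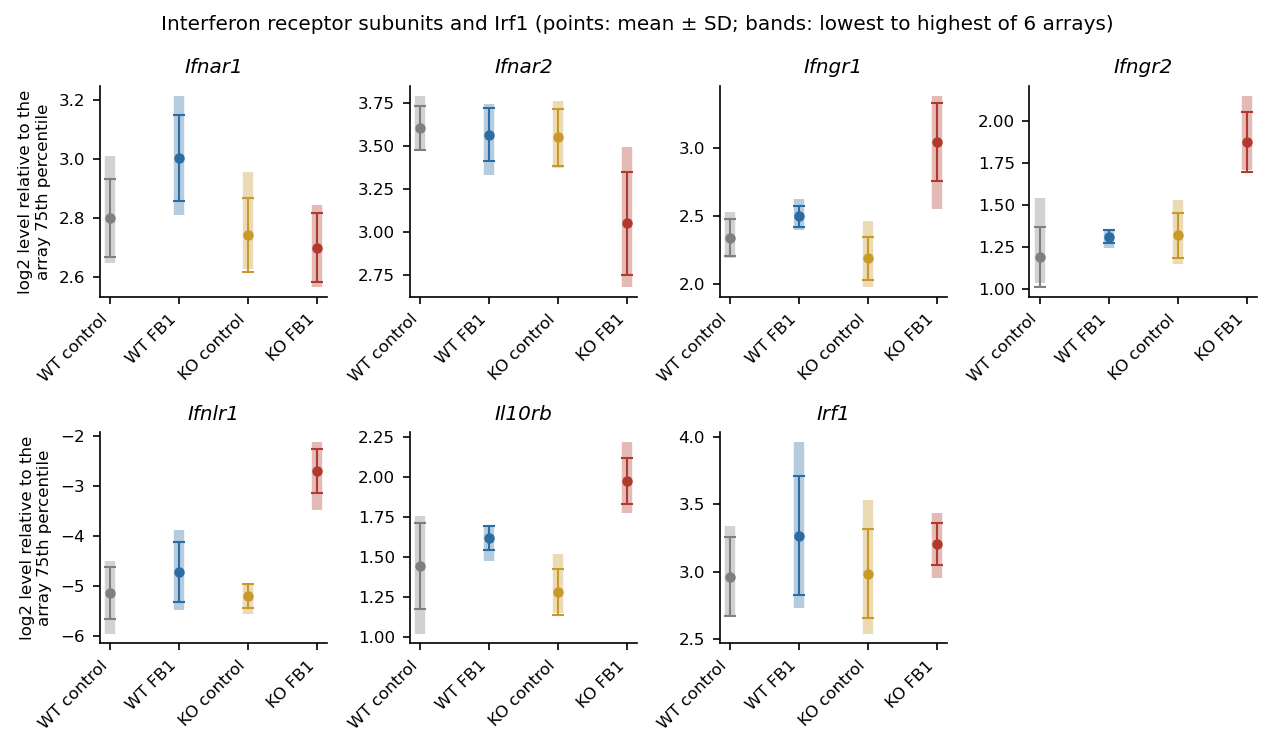
Log2 level (vertical) of Ifnar1, Ifnar2, Ifngr1, Ifngr2, Ifnlr1, Il10rb and Irf1 by group (horizontal), with points for the mean, thin capped bars for ± SD and pale broad bars for the range of 6 livers. Ifnlr1 stands between -3.48 and -2.11 in KO FB1 livers and at or below -3.88 in the other groups, while the mean of Ifnar2 is lowest in KO FB1 livers.

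Irf1, a factor induced mainly by interferon gamma, differed in KO mice by 0.22 ± 0.18 (adjusted p = 0.332) and was not called in WT mice. Among sensors that feed interferon induction, Tlr3 (1.25 ± 0.23, adjusted p = 0.000156), Mb21d1, which encodes the DNA sensor cGAS (0.85 ± 0.17, adjusted p = 0.00044), and Tmem173, which encodes its partner STING (0.53 ± 0.14, adjusted p = 0.00415), rose with FB1 in KO mice. Socs1, the feedback inhibitor of receptor kinases, rose by 0.90 ± 0.26 (adjusted p = 0.00793). Mavs, the adaptor through which RIG-I and MDA5 signal, fell by 0.62 ± 0.091 (adjusted p = 1.47e-05) in KO mice and fell by 0.35 ± 0.091 (adjusted p = 0.0353) in WT mice. It was the 1 upstream gene of 35 called in WT, where 2.89% of all genes were called in either direction. The 5 upstream genes with the smallest p for FB1 in KO mice were Ifnlr1 (2.50, adjusted p = 2.85e-07), Ifngr1 (0.86, adjusted p = 2.01e-06), Il10rb (0.69, adjusted p = 1.33e-05), Mavs (-0.62, adjusted p = 1.47e-05) and Ifngr2 (0.56, adjusted p = 2.88e-05). Between KO and WT controls 3 of 35 upstream genes were lower and 0 higher, beside 8.03% and 7.18% of all genes. The 3 were Unc93b1 (-0.54, adjusted p = 1.54e-05), Ifna5 (-0.50, adjusted p = 0.0238) and Irf5 (-0.51, adjusted p = 0.0494). Between the FB1 groups 8 of 35 were higher in KO and 5 lower, beside 14.6% and 18.3% of all genes. The 5 with the smallest p were Ifnlr1 (2.02, adjusted p = 2.43e-06), Ifngr2 (0.56, adjusted p = 2.31e-05), Mb21d1 (1.01, adjusted p = 7.99e-05), Mavs (-0.48, adjusted p = 0.000252) and Ifngr1 (0.54, adjusted p = 0.000336).

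Most interferon genes lay at or near background. Of the interferon genes on the array 7 were tested, and with FB1 in KO mice none rose. Ifnab (-0.37 ± 0.12, adjusted p = 0.0154) and Ifna9 (-0.31 ± 0.12, adjusted p = 0.0447) were lower, while Ifna1 (-0.26), Ifna5 (0.28), Ifna14 (0.23), Ifnk (-0.35) and Ifnl3 (-0.24) were not called. Ifnb1 was well above background on 1 of 24 arrays, Ifne on 2 and Ifng on 14, and 8 interferon alpha genes on at most 4, so that a difference between groups was not detectable at this signal for these 11 genes and no fold was computed.

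Other known interferon targets, a list of 103 genes of which 88 were tested, rose in part as well. With FB1 in KO mice 41 rose and 6 fell, with a median of 0.38, against the 16.6% and 24.7% of all genes given above. The 5 with the smallest p were Ifi27l2b (3.82 ± 0.26, adjusted p = 2.5e-09), Oas1f (2.68 ± 0.24, adjusted p = 5.04e-08), Ifi27l2a (2.35 ± 0.25, adjusted p = 3.76e-07), Ly6e (0.93 ± 0.11, adjusted p = 1.46e-06) and Ifi27 (1.05 ± 0.13, adjusted p = 2.58e-06). In WT mice 1 rose, Ifi27l2b (1.34 ± 0.26, adjusted p = 0.00356). Cxcl9, a chemokine induced by interferon gamma, fell by 0.87 ± 0.31 (adjusted p = 0.0281) in KO mice, and Gbp5 fell by 0.72 ± 0.21 (adjusted p = 0.0093). Further GTPases of this list were also mixed, since Gbp9 (0.84) and Gvin1 (1.16) rose, while Gbp4 (0.22), Gbp8 (0.25), Gbp10 (-0.13) and Tgtp2 (0.67) were not called. Without FB1, 10 of the 88 were lower in KO than in WT livers and 3 higher, beside 8.03% and 7.18% of all genes, and the 5 with the smallest p were Slfn9 (-0.74, adjusted p = 1.42e-05), Gbp5 (-1.26, adjusted p = 0.000134), Ly6e (-0.60, adjusted p = 0.000434), Ifi27l2b (-1.10, adjusted p = 0.00413) and Nmi (-0.43, adjusted p = 0.00762). With FB1, 21 were higher and 7 lower, beside 14.6% and 18.3%, led by Gbp5 (-1.78, adjusted p = 8.01e-07), H2-T24 (1.29, adjusted p = 7.19e-06), Oas1f (1.34, adjusted p = 0.000155), Slfn9 (-0.58, adjusted p = 0.000156) and Phf11b (1.07, adjusted p = 0.000192). The difference of the FB1 effects was called and positive for 15 of the 88 and negative for 0, beside 4.49% and 4.91% of all genes, led by Ifi27l2b (2.48, adjusted p = 0.000436), Oas1f (1.92, adjusted p = 0.00187), Phf11b (1.42, adjusted p = 0.00354), Ifi27l2a (1.77, adjusted p = 0.00386) and Phf11a (1.29, adjusted p = 0.00633).

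Markers of other cell types also changed. Over all genes tested, 16.6% rose and 24.7% fell with FB1 in KO mice, 2.06% rose with FB1 in WT mice, and 8.03% were lower in KO than in WT controls. With FB1 in KO mice 7 of 10 markers of recruited monocytes and macrophages rose, and their mean log2 level per liver ran from -0.18 to 0.38 in KO controls and from 1.27 to 1.76 in KO FB1 livers. In WT mice 5 of 10 rose, and that level ran from -2.06 to -0.89 in WT controls and from -0.77 to 0.27 in WT FB1 livers, with 0 of 41 members called. Of the markers of plasmacytoid dendritic cells, which make much interferon alpha in infection, 6 of 8 rose in KO mice, with mean levels from 0.38 to 0.84 in KO controls and from 1.11 to 1.45 in KO FB1 livers. Bst2 stands in that list as well as among the members. All 5 B and plasma cell markers tested rose, with mean levels from -2.44 to -1.74 in KO controls and from -1.68 to -0.94 in KO FB1 livers, whereas 0 of 7 T and NK cell markers were called in limma, with 1 at an unadjusted p under 0.05. Of the hepatocyte markers 5 of 10 fell, with mean levels from 8.16 to 8.42 in KO controls and from 7.73 to 8.34 in KO FB1 livers, and of the sinusoidal endothelial markers 5 of 8 fell. Of the neutrophil markers 0 of 8 rose and 1 fell in KO mice. Resident macrophage markers were lower in KO than in WT controls for 8 of 10. In the same comparison 6 of 10 markers of recruited monocytes and macrophages were higher and 1 lower, beside 7.18% of all genes higher. KO FB1 replicate 3, the liver lowest in the members, was also the lowest of its group in the resident and recruited macrophage, plasmacytoid dendritic and T and NK lists and the highest in the hepatocyte list. It was the highest in the neutrophil list, and it was not the lowest in the B and plasma cell and sinusoidal endothelial lists. Replicate 5, the highest in the members, was the highest in 0 of the 8 lists. The part of these cell types in the members' differences was not tested.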

How the data were processed

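Liver RNA of 24 mice was read on 24 single-colour Agilent arrays of 56605 probes. Per the file headers, the authors' deposited scanner values are spot intensities from Agilent Feature Extraction 10.10.1.1, with the local background subtracted and spatial trends removed within each array, and with no normalisation between arrays. Per the file headers each spot also carries 0 or 1 marks for detection, saturation and outliers. The submitters' processing notes name limma as well. The authors' deposited value table was found to be on a log2 scale, with column medians of 7.86, and each of its 24 columns matched its own array best. It was used only as an alternative.

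From these files, log2 of the processed signal minus the log2 of the 75th percentile of each array was computed, so that 0 is the level of that percentile, which lay between 490 and 685 intensity units. Between 64 and 121 outlier spots per array were set missing and 0 were saturated. Tested probes had to be detected above background on all arrays of 1 group or more, unmarked spots counted, with 4 or more values in every group, which left 33417 probes and 21956 genes. A gene is its tested probe with the highest mean. The 41 members had 72 probes, 68 of them tested. The 4 group means were fitted over all 24 arrays with no covariate in limma 3.58.1 (R 4.3.3, lmFit and eBayes). P-values were adjusted by Benjamini-Hochberg over all genes within each of 5 comparisons, and a gene was called at an adjusted p under 0.05. A value after ± is the fit's standard error unless SD is written. The steps were tested on simulated data. Probe positions are those of the files (mm9), promoter sequences are RefSeq's on GRCm38.p6, and figures were drawn with matplotlib 3.10.9.

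The members and the lists of upstream genes, other targets and cell markers were chosen with earlier results of these data known. Values in every group are given for each member called in any comparison and for at least 2 members per role. Of the lists of upstream genes and other targets the 5 called genes with the smallest p are named, and always Irf1, the 4 chains of the interferon alpha and gamma receptors and the measured interferon genes. The other 2 receptor chains are part of the upstream list, and 1 gene of that list is not reported here. Nothing in the labels says more of the 6 mice per group than that they are separate samples. The p-values set a difference between group means against 1 spread between mice per gene, shared by all 4 groups. Alternatives were quantile normalisation, normexp with an offset of 50 followed by quantile normalisation, the authors' values, the mean of all probes of a gene, outlier spots not set missing, a stricter filter on dim probes and none, a slide term, a replicate term, array weights, each slide alone, only the compared groups, a 1.5-fold minimum, each array left out and, added after seeing the data, KO FB1 replicates 3 and 5 both left out.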

Additional observations from a re-analysis of the deposited data

Results flagged for a closer look

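In 6 of 164 groups of 6 livers, 1 liver stood apart from the rest of its group for a member, by a gap to the nearest liver above Dixon's critical value at the 95% level. Chance gives about 1 in 20 such groups. In KO FB1 replicate 3 Ifit2 lay lowest at -2.69, with a gap of 0.636 of the range, and Mx1 lay lowest at -2.31, with a gap of 0.677. Oas1b, on a probe that differs from the gene's other probes, lay highest in the same liver at 5.45, with a gap of 0.659, and highest in KO control replicate 5 at 5.42, with a gap of 0.648. Bst2 lay highest in WT FB1 replicate 1 at 5.40, with a gap of 0.642, and Gbp2 lay highest in WT control replicate 6 at 1.69, with a gap of 0.725.

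The FB1 difference was larger in KO than in WT mice for 13 members by limma's test of the difference itself. The KO minus WT difference of the FB1 effects was 2.70 for Oas3, 2.50 for Oas1g, 1.86 for Oas1a and 1.21 for Oas2 among the oligoadenylate synthetases, and 1.20 for the related Oasl1. It was 1.96 for Ifi44, 1.46 for Ifit2, 1.47 for Cmpk2, 0.52 for Ifi35 and 0.64 for Trim30a. In the ISG15 system it was 1.14 for Isg15 and 1.47 for its protease Usp18, and for the transcription factor Irf7 it was 1.44.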

How the results depend on the processing

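Over all alternatives 8154 values of single members were recomputed. Direction and side of the threshold held for 7463, a call was lost in 308 and gained in 129, a value called in at least 1 of the 2 settings changed sign in 10, and 244 uncalled values changed sign. With the mean of a gene's probes, Oas1b rose by 0.62 with FB1 in KO mice and its KO minus WT difference with FB1 became 0.17, while that of Xaf1 became -3.23 without FB1 and -2.32 with it; probes of these genes disagree. On slide 2 alone the KO minus WT difference with FB1 became -0.15 for Dhx58, -0.084 for Ifi44, -0.017 for Isg15, -0.13 for Mx1, -0.21 for Mx2 and -0.11 for Oasl1, and the cause was not tested.

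Of the counts of called members, those with FB1 were 28 higher in KO (27 of type I, 1 GTPase) and 0 in WT. Those between genotypes were 1 higher and 5 lower in KO without FB1 and 19 higher and 1 lower with it, and 13 differences of the effects were positive. With quantile normalisation, normexp or the authors' values, 1 member was higher with FB1 in WT (Oas1b), 3 GTPases rose in KO (Gbp6, Iigp1 and Irgm1), and 0 were lower in KO with FB1. The 1.5-fold minimum also left 0 lower there. With no filter on dim probes 0 GTPases rose, 3 members were lower without FB1 and 12 higher with it. With the mean of a gene's probes 1 member was higher with FB1 in WT (Oas1b) and 0 higher in KO without FB1. Array weights gave 3 GTPases and 21 differences of the effects. With only the compared groups in the fit, 2 GTPases rose, 8 members were lower without FB1 and 10 higher with it. Without KO FB1 replicates 3 and 5 (chosen after seeing the data), 1 member was higher with FB1 in WT (Oas2), 0 GTPases rose, 1 type I member fell (Oas1b), 8 were lower without FB1, and the differences of the effects were 20 positive and 1 negative.

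With 2 arrays per group, slide 2 alone called 0 members in all comparisons. Slide 1 alone gave 0 higher without FB1, 0 lower with it and 1 difference of the effects, and slide 3 alone gave 0 higher and 1 lower without FB1, 12 higher and 0 lower with it, and 8 differences. A slide term removed 1 call, the difference of the effects for Oasl1. Leaving out 1 array gave 0 to 1 member higher with FB1 in WT (1 without WT control replicate 6), 27 to 34 higher and 0 to 1 lower in KO, of which 27 to 30 higher and 0 to 1 lower were of type I, and 0 to 4 GTPases. It gave 3 to 7 lower without FB1, 6 to 23 higher and 1 to 2 lower with it, and 11 to 22 positive and 0 to 1 negative differences of the effects.

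The labels number the samples of each group 1 to 6. Same-numbered samples deviated from their group means with correlations of -0.20 to 0.24, so no pairing by number was seen. Weak correlations cannot exclude a pairing that leaves little trace in the levels. The replicate block left 3 members lower without FB1 and took the calls of Oas1g and Zbp1 there, of Cmpk2, Ifi44, Mx1 and Oasl1 between the FB1 groups and of Isg15 and Oasl1 in the difference of the effects.

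Signal over background limits the dimmest members and most interferon genes, and the number of arrays, 6 per group, limits the precision.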
